A study of Mus musculus with 24 samples.

Results

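The genes described here encode the enzymes that make cholesterol, the proteins that sense and regulate its supply, and 1 sterol carrier, in mouse liver with and without the stress kinases JNK1 and JNK2. They were chosen by name as a list of SREBP2 target genes and SREBP pathway proteins. No measured value enters that rule, although the list was drawn up with earlier results of these data known. The list held 28 names, which matched 27 of the 31027 loci of the deposited table, because Sc4mol and Msmo1 are names of the same gene and the table carries Sc4mol. The locus of Tm7sf2 also carries the name 1110014N23Rik, so its values below cannot be given to Tm7sf2 alone. All 27 passed the filter for testing (a mean of at least 1 FPKM over all libraries), as did 10562 loci in total. FPKM divide a locus's fragments by its length and by the library's mapped fragments, so levels can be set side by side between genes.

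Liver RNA was sequenced in 24 libraries from C57BL/6J mice, 3 in each of 8 groups. Every group carried AlbCre, a Cre recombinase transgene driven by the albumin promoter, which is active in hepatocytes. The control groups carried AlbCre alone, and the others added Jnk1flox/flox, Jnk2flox/flox or both pairs of floxed alleles. They are called control, Jnk1, Jnk2 and Jnk1Jnk2 below. Each genotype was studied on chow and on a high fat diet, with 16 weeks of feeding. Ages and sexes are not stated in the labels, and the labels do not say whether 1 mouse stands behind each library. The p-values therefore measure library-to-library spread only, and that spread may be technical.

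As background, cholesterol is built from acetyl-CoA through mevalonate, farnesyl diphosphate, squalene and lanosterol. When sterols in the endoplasmic reticulum are scarce, SCAP escorts the membrane-bound transcription factor SREBP2 to the Golgi, where the site-1 protease MBTPS1 makes the first of its activating cuts, and the released factor raises transcription of nearly every enzyme of the route. When sterols are plentiful, INSIG1 and INSIG2 hold SCAP in the endoplasmic reticulum. Insig1 and Srebf2 are themselves SREBP targets, whereas a liver transcript of Insig2 is known to be lowered by insulin.

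Promoters of 4 genes that moved together below (Hmgcs1, Idi1, Sc4mol and Insig1) are shown to place the sequence that SREBP2 is known to bind beside their values, and that of Insig2 is shown because its values ran the other way. RefSeq promoters (GRCm38.p6) were matched for 23 of the 27 genes and were not matched for Fdps, Fdft1, Sqle and Stard4. The 250 bases before the annotated start are printed 5′ to 3′, with capitals marking matches, on either strand, to the sterol element TCACNCCAC or to CCAAT, the core of the NF-Y site.
Hmgcs1, chr13:119690101-119690350, plus strand: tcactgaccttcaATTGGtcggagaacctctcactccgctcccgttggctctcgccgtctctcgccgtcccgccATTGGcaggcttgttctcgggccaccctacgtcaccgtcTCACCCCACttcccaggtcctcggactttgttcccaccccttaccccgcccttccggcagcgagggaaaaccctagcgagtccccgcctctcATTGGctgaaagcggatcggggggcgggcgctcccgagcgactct
Idi1, chr13:8885356-8885605, plus strand: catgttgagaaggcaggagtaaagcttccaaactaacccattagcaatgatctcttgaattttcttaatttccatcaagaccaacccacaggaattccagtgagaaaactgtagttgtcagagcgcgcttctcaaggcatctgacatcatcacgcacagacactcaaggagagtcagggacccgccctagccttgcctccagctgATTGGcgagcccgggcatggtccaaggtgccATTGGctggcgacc
Sc4mol, chr8:64733579-64733828, minus strand: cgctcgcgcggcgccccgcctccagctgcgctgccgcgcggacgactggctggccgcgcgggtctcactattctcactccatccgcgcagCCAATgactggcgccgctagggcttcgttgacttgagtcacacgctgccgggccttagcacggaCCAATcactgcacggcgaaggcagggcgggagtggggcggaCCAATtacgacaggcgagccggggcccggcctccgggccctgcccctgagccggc
Insig1, chr5:28071162-28071411, plus strand: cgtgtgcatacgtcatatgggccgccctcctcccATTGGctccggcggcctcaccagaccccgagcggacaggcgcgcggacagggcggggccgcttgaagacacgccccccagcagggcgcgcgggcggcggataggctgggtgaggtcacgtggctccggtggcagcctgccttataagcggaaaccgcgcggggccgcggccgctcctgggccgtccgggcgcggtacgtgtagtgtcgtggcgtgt
Insig2, the first of 3 annotated starts, chr1:121332590-121332839, minus strand: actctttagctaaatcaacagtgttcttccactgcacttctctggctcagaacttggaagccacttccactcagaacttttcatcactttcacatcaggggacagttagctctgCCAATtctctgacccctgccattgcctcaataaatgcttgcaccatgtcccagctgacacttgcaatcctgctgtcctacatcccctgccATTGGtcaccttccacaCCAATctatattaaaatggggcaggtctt
Hmgcs1 held the letters TCACCCCAC from 137 to 129 bases before its start. It was the only 1 of the 23 genes with TCACNCCAC on either strand in the annotated window of 250 bases before and 50 after a start (4.35%), against 1.44% of 27025 genes. A shorter overlapping form, CACCCCAC, occurred in Acat2 and Hmgcs1 (8.7%, against 3.3% of all genes). CCAAT, in either orientation, occurred in 19 of the 23 (82.6%, against 41.1% of all genes), among them every promoter printed here. These are letter matches in a fixed window and not measured binding sites.

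Facts that touch every result are few. The labels were checked against the floxed genes: Mapk8, which encodes JNK1, was lower than in control in the Jnk1 and Jnk1Jnk2 groups of both diets (group means of 1.12 to 2.12 FPKM, against 5.19 on chow and 4.29 on high fat in control), and Mapk9, which encodes JNK2, was lower in the Jnk2 and Jnk1Jnk2 groups (4.62 to 7.27 FPKM, against 9.94 and 11.0). The hepatocyte marker list was found in full, with 1 of its 6 genes, Serpina1a, listed at 0 in some libraries. Relative depth, read from the smallest steps between low values, was lowest at 0.301 times that of chow control replicate 1, which was read most deeply. The high fat Jnk1Jnk2 libraries stood apart. Their FPKM summed to at least 849038, against at most 734352 in the other 21, and their deviation from the mean library fell with transcript length (Spearman's rho across loci -0.62 to -0.56, against -0.26 to 0.40 in the others). The count of called genes in each comparison that rests on them is therefore given as deposited and with a smooth trend on length removed. Changes of single genes are as deposited unless removal of the trend is named.

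Levels across the list spanned a wide range. Mean FPKM over the 24 libraries was highest for Insig2 (126), Sc5d (86.8), Ebp (73.3) and Tm7sf2 (46.4), and lowest for Mvd (2.01), Lbr (2.36) and Lss (3.69). High fat Jnk1 livers had the highest group mean for 19 of the 27 genes, and the lowest for 1, Insig2. High fat Jnk2 livers had the lowest mean for 10 genes and high fat Jnk1Jnk2 livers for 8. Sqle varied most between groups, with group means 11.0-fold apart, and Lbr least, at 1.17-fold. In the heat map of all libraries the high fat Jnk1 block is the darkest red, and its replicate 3 is paler than replicates 1 and 2.

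**Figure D1:**
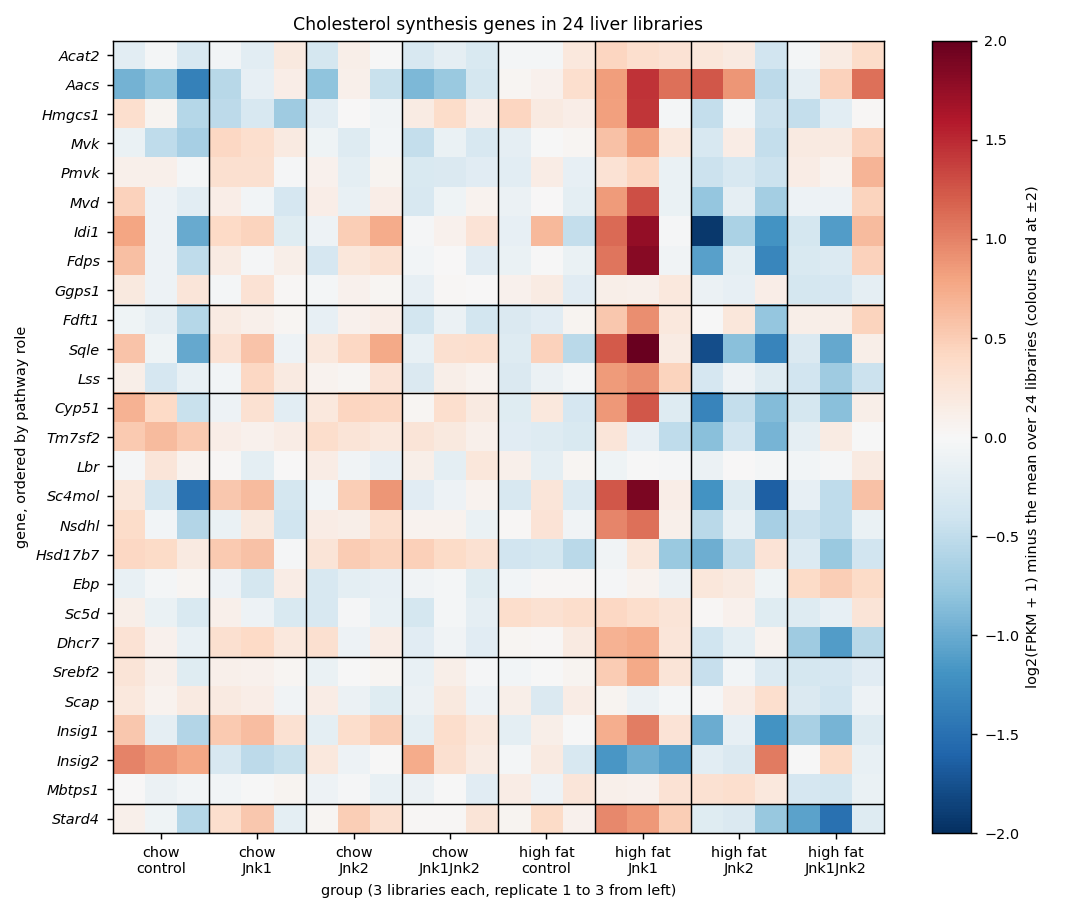
Each row is 1 of the 27 genes and each column 1 of the 24 libraries, grouped by diet and genotype; colour is log2(FPKM + 1) minus the gene's mean over all libraries. High fat Jnk1 replicates 1 and 2 are high for most enzymes, with Insig2 low in all 3, and high fat Jnk2 replicates 1 and 3 are low for Idi1, Sqle and Sc4mol.

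The first enzymes of the route gave the following values on the high fat diet, always in the order of replicates 1, 2 and 3. Hmgcs1, which joins acetyl-CoA and acetoacetyl-CoA ahead of mevalonate, was at 36.6, 30.7 and 29.6 FPKM in control, 48.2, 74.1 and 26.0 in Jnk1, 19.0, 26.0 and 19.8 in Jnk2, and 19.1, 23.2 and 27.3 in Jnk1Jnk2. Idi1, the isopentenyl diphosphate isomerase, was at 10.2, 18.6 and 8.02 FPKM in control, 26.5, 41.6 and 11.3 in Jnk1, 2.31, 7.06 and 4.47 in Jnk2, and 8.8, 4.79 and 18.4 in Jnk1Jnk2. For Idi1 no Jnk2 library reached any control or Jnk1 library, and the Jnk1Jnk2 libraries overlapped both. Fdps, the farnesyl diphosphate synthase, was at 16.2, 17.7 and 16.3 FPKM in control, 38.7, 65.4 and 16.9 in Jnk1, 7.89, 15.4 and 6.64 in Jnk2, and 14.2, 14.6 and 25.1 in Jnk1Jnk2. Mvd, the mevalonate diphosphate decarboxylase, was at 1.64, 1.89 and 1.49 FPKM in control, 4.16, 5.98 and 1.62 in Jnk1, 0.675, 1.52 and 0.781 in Jnk2, and 1.66, 1.68 and 2.91 in Jnk1Jnk2. In each of these 4 genes Jnk1 replicates 1 and 2 stood above every control library, while Jnk1 replicate 3 lay near or within the control range.

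Of the 3 enzymes that make and cyclise squalene, Sqle differed most between Jnk1 and Jnk2 livers. Sqle, the squalene epoxidase, was at 2.89, 5.4 and 2.21 FPKM in high fat control, 9.91, 17.4 and 4.22 in Jnk1, 0.372, 1.62 and 0.868 in Jnk2, and 2.81, 1.29 and 4.05 in Jnk1Jnk2. Lss, the lanosterol synthase, was at 2.69, 3.15 and 3.38 FPKM in control, 7.15, 7.63 and 5.14 in Jnk1, 2.59, 3.23 and 2.77 in Jnk2, and 2.47, 1.75 and 2.36 in Jnk1Jnk2. Every Jnk1 library was above all 9 others on the diet for Lss, which holds for Sqle against Jnk2 and Jnk1Jnk2 but not against control. Fdft1, the squalene synthase, was at 10.5, 11.0 and 13.6 FPKM in control, 19.6, 25.8 and 15.3 in Jnk1, 13.1, 15.5 and 7.3 in Jnk2, and 14.3, 14.3 and 18.2 in Jnk1Jnk2. Its Jnk1 libraries did not overlap control, and they did overlap the other floxed groups.

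Among the enzymes after lanosterol, Cyp51, the lanosterol demethylase, was at 5.41, 7.79 and 5.0 FPKM in high fat control, 12.9, 17.0 and 5.37 in Jnk1, 2.05, 4.44 and 3.19 in Jnk2, and 4.99, 3.27 and 7.24 in Jnk1Jnk2. Sc4mol, the sterol methyl oxidase, was at 19.5, 29.2 and 20.2 FPKM in control, 59.4, 93.0 and 27.1 in Jnk1, 10.2, 20.4 and 7.21 in Jnk2, and 21.8, 17.0 and 37.2 in Jnk1Jnk2. Both genes show the same library order within Jnk1, with replicate 2 highest and replicate 3 lowest. Nsdhl, which removes the sterol's C4 carboxyl group, was at 4.42, 5.43 and 4.06 FPKM in control, 9.39, 10.4 and 4.69 in Jnk1, 2.66, 3.81 and 2.34 in Jnk2, and 2.92, 2.73 and 3.86 in Jnk1Jnk2. Dhcr7, which makes cholesterol from 7-dehydrocholesterol, was at 5.62, 5.49 and 6.3 FPKM in control, 9.36, 9.68 and 6.62 in Jnk1, 3.86, 4.6 and 5.75 in Jnk2, and 2.94, 1.96 and 3.35 in Jnk1Jnk2. For Dhcr7 the Jnk1Jnk2 libraries lay below all 9 others and the Jnk1 libraries above all 9 others.

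Of the 5 regulators, Srebf2, Insig1 and Insig2 varied most between the high fat groups. Srebf2, which encodes SREBP2, was at 12.0, 12.5 and 13.0 FPKM in high fat control, 18.2, 21.8 and 15.2 in Jnk1, 8.79, 12.1 and 10.2 in Jnk2, and 9.61, 9.75 and 10.6 in Jnk1Jnk2. Insig1 was at 24.8, 30.9 and 28.3 FPKM in control, 48.1, 59.0 and 34.8 in Jnk1, 13.9, 25.5 and 11.9 in Jnk2, and 17.8, 14.6 and 23.8 in Jnk1Jnk2. For both, all Jnk1 libraries were above all 9 others. Insig2 ran the other way, at 112, 131 and 92.2 FPKM in control, 51.0, 58.2 and 52.9 in Jnk1, 99.0, 93.6 and 238 in Jnk2, and 114, 150 and 104 in Jnk1Jnk2. All 3 Jnk1 libraries were below the rest, and Jnk2 replicate 3 stood far above its own group. Scap (20.2 to 27.5 FPKM in control, 22.8 to 25.7 in Jnk1 and 24.5 to 31.6 in Jnk2) and Mbtps1 (10.1 to 13.0, 11.6 to 13.5 and 12.7 to 14.0) overlapped across those groups and did not follow the high Jnk1, low Jnk2 order. Stard4, a soluble carrier that moves sterol between membranes, was at 5.82, 7.51 and 5.94 FPKM in control, 11.7, 11.0 and 8.2 in Jnk1, 4.53, 4.37 and 2.88 in Jnk2, and 2.12, 1.34 and 4.49 in Jnk1Jnk2. Its control libraries lay between the Jnk1 libraries and those of the other floxed groups, with no overlap.

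**Figure D2:**
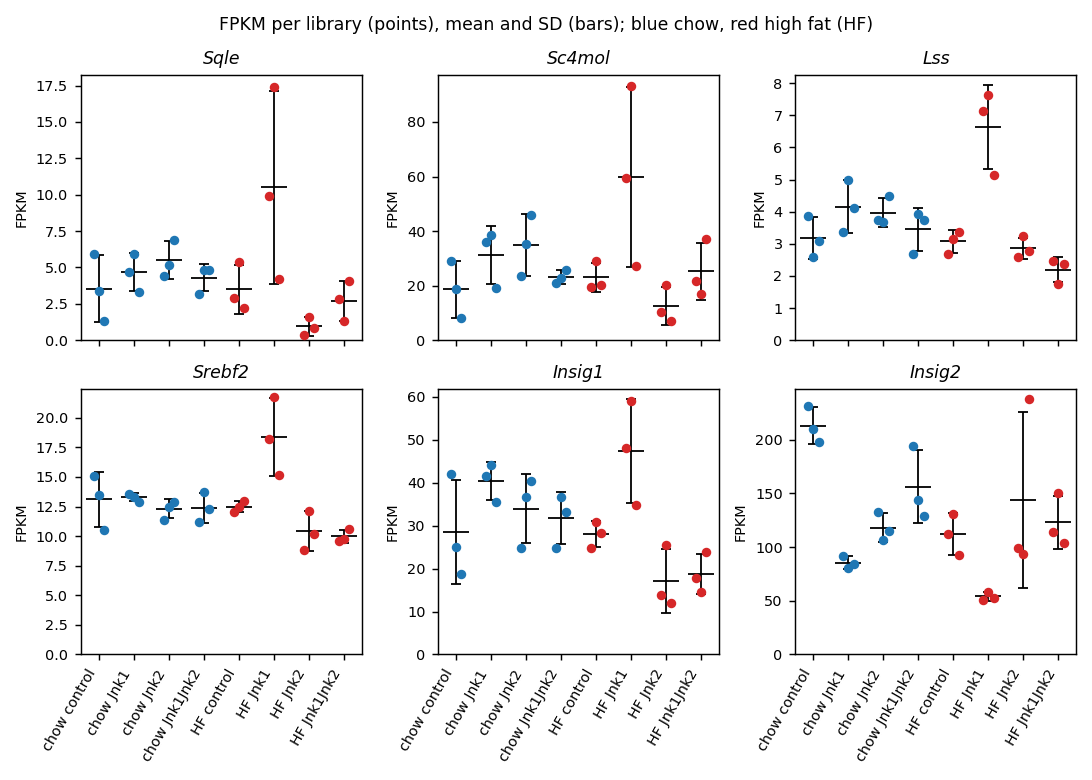
FPKM on the vertical axis for 6 genes in the 8 groups; points are the 3 libraries of a group, bars the mean and SD, blue chow and red high fat. High fat Jnk1 has the highest mean for Sqle (10.5), Sc4mol (59.8), Lss (6.64), Srebf2 (18.4) and Insig1 (47.3) and the lowest for Insig2 (54.0).

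Libraries of the same group also differed together. Deviations of log2(FPKM + 1) from the group mean had a median Pearson r of 0.34 over the 351 pairs of these genes, with 261 pairs above 0, against 0.06 over all pairs of tested loci. The points are the same 24 libraries and share their depth and RNA, so this is a description. With Sqle, r was 0.97 for Idi1, 0.96 for Cyp51, 0.91 for Sc4mol, 0.89 for Nsdhl, 0.86 for Mvd, 0.84 for Insig1 and 0.83 for Srebf2, and 11 genes had an r of at least 0.7. It was -0.02 for Insig2, -0.03 for Scap, -0.17 for Lbr and for Ebp, and -0.26 for Mbtps1. High fat Jnk1 replicate 3 was the lowest of its group for 21 of the 27 genes and replicate 2 the highest for 20. High fat Jnk2 replicate 2 was the highest of its group for 18 and high fat Jnk1Jnk2 replicate 3 for 22. Genes that move together within a group are not separate pieces of evidence, and the counts of called genes below carry that limit. For comparison, the median r was 0.16 over 55 pairs of SREBP1c fatty acid synthesis genes and 0.06 over 36 pairs of LXR target genes.

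**Figure D3:**
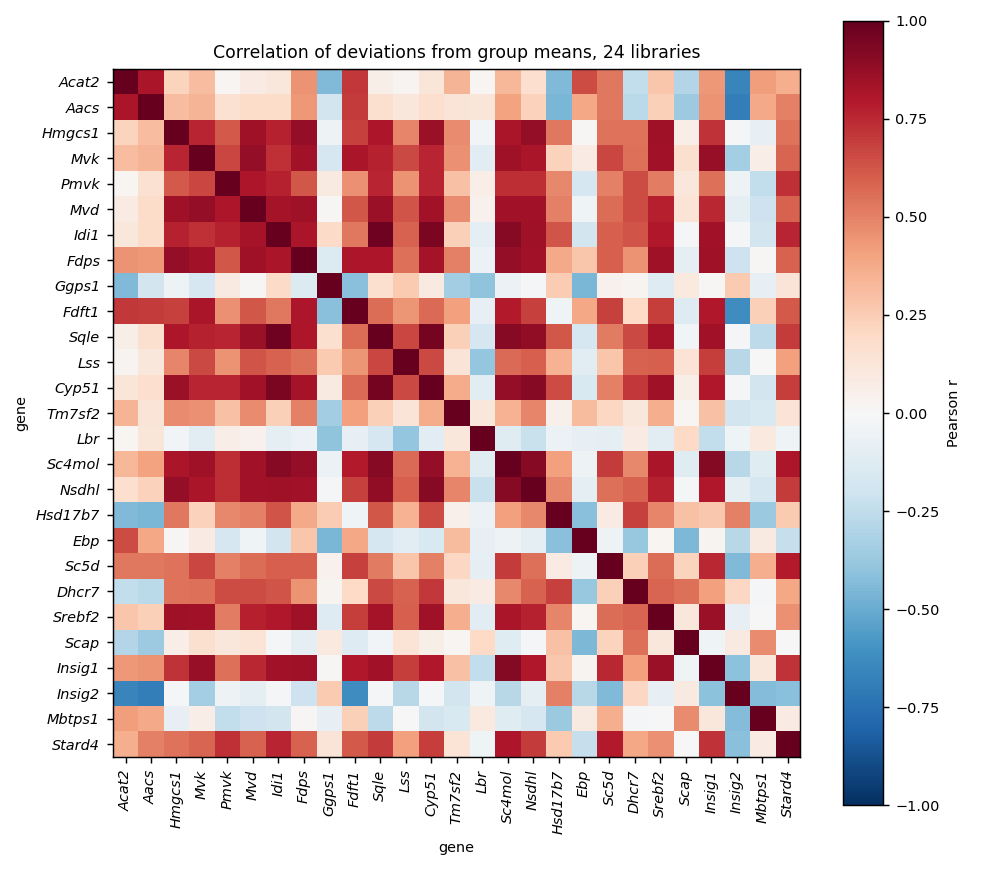
Pearson r of deviations from group means for each pair of the 27 genes over 24 libraries, rows and columns in the same order. A block of Hmgcs1, Mvk, Pmvk, Mvd, Idi1, Fdps, Sqle, Cyp51, Sc4mol, Nsdhl, Srebf2 and Insig1 is red throughout, while Lbr, Scap, Insig2 and Mbtps1 lie outside it.

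The first question is what loss of each kinase did on the high fat diet. Each change is a difference between group means of log2(FPKM + 1), given ± SE, a scale that shrinks changes of weakly expressed genes, and a gene is called at a limma adjusted p under 0.05 over all tested loci. The 3 comparisons with control share the control libraries and are given side by side. In Jnk1 livers 1 of the 27 genes was called, Lss, which rose by 0.90 ± 0.15 (adjusted p = 0.00892), against 0.227% of all loci. The Lss call ended without high fat control replicate 1 (adjusted p = 0.0731), Jnk1 replicate 1 (0.0659) or Jnk1 replicate 2 (0.079), with the change at 0.80 to 0.84. The median change of the 27 genes was 0.51, against 0.00 for all loci, with 23 above 0 and 4 below. The groups did not overlap for 10 genes (37%, against 18.7% of all loci), and 15 had an unadjusted limma p under 0.05 (55.6%, against 11.9%). Sqle differed by 1.24 ± 0.42 (adjusted p = 0.231), Sc4mol by 1.20 ± 0.45 (0.276) and Srebf2 by 0.51 ± 0.13 (0.088), none of them called, and Insig2 by -1.02 ± 0.25 (0.0758), also not called. With each library weighted by its fit to its group, 17 of the 27 genes were called, 16 higher and 1 lower, and 716 loci in all (6.78%) in place of 24.

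In high fat Jnk2 livers none of the 27 genes was called against control, where 12.4% of all loci were, and 10 of the 27 had an unadjusted limma p under 0.05 (37%, against 27.7% of all loci). The median change was -0.26, against 0.02 for all loci, with 6 genes above 0 and 21 below. Idi1 differed by -1.26 ± 0.49 (adjusted p = 0.0996), Sqle by -1.19 ± 0.42 (0.0688), Tm7sf2, a sterol C14 reductase, by -0.45 ± 0.15 (0.0507) and Insig1 by -0.75 ± 0.28 (0.0886). With library weights 8 were called, 1 higher and 7 lower, against 26.7% of all loci. Marker genes of other liver cells moved in this comparison too: 3 of 4 endothelial markers were called higher, with sums of 40 to 47.4 FPKM in control and 62.7 to 66.2 in Jnk2, as were 3 of 7 macrophage markers and 1 of 4 stellate markers. Neutrophil markers summed to 25.9 to 87.3 FPKM in control and 14 to 21.7 in Jnk2, neither of 2 called. Their part in the result was not tested.

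**Figure D4:**
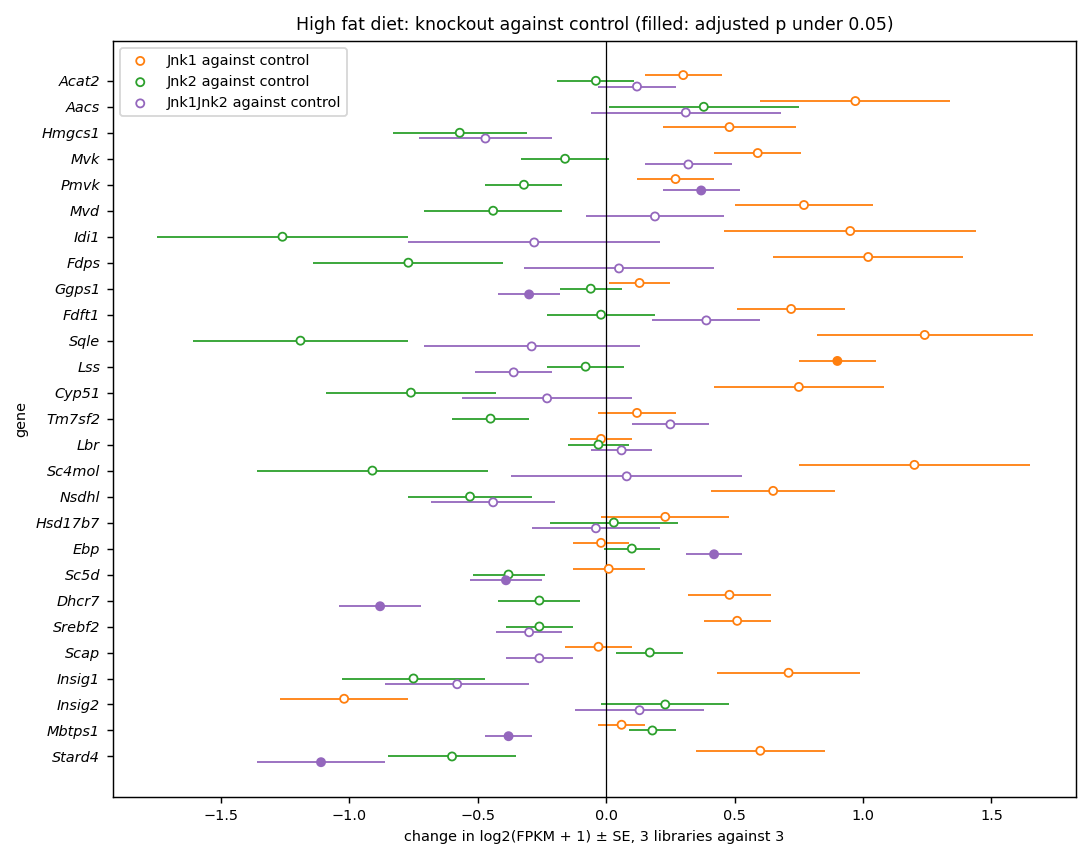
Change in log2(FPKM + 1) ± SE (horizontal axis) of each gene in high fat Jnk1, Jnk2 and Jnk1Jnk2 livers against the same 3 high fat control libraries, filled where the adjusted p was under 0.05. Jnk1 points lie mostly right of 0 and Jnk2 points mostly left, with Insig2 reversed, and only Lss among the single knockouts is filled.

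Jnk2 and Jnk1 livers were then compared directly on the high fat diet. This comparison was added after the levels above had been seen. The difference was picked for being visible, so its p-values do not have their stated error rate. Of the 27 genes 18 were called, 17 lower and 1 higher in Jnk2 than in Jnk1 (66.7%, against 14.5% of all loci; for lower alone 63%, against 6.91%). The median change was -0.74, against 0.03 for all loci, and for 18 genes the groups did not overlap (66.7%, against 33.5% of all loci). Mevalonate enzymes that fell were Idi1 (-2.21 ± 0.49, adjusted p = 0.00587), Fdps (-1.80 ± 0.37, 0.00325), Mvd (-1.22 ± 0.27, 0.00535), Hmgcs1, Mvk and Pmvk. Of the squalene and lanosterol enzymes Sqle (-2.43 ± 0.42, 0.000944), Lss (-0.97 ± 0.15, 0.000424) and Fdft1 (-0.74 ± 0.21, 0.0208) were lower. Later enzymes that were lower included Sc4mol (-2.11 ± 0.45, 0.0046), Cyp51 (-1.51 ± 0.33, 0.00532) and Nsdhl (-1.17 ± 0.24, 0.00315), along with Dhcr7 (-0.73 ± 0.16) and Tm7sf2 (-0.57 ± 0.15). Insig1 (-1.46 ± 0.28, 0.00246), Srebf2 (-0.77 ± 0.13, 0.000656) and Stard4 (-1.20 ± 0.25, 0.00397) were lower too. Insig2 was the gene that rose, by 1.26 ± 0.25 (0.00267). Scap, Mbtps1, Lbr, Ebp, Sc5d, Ggps1, Acat2, Aacs and Hsd17b7 were not called. Of the 18 calls, 14 were kept with each library left out in turn and under every other setting, and 14 to 19 genes were called when a library was left out. Hmgcs1 lost its call without Jnk1 replicate 1 (0.051) or replicate 2 (0.0753), and Pmvk, Fdft1 and Tm7sf2 lost theirs without Jnk1 replicate 1 (0.0638 to 0.102), among other libraries. Spearman's rho with transcript length was -0.14, -0.26 and 0.20 in the Jnk2 libraries and 0.34, 0.18 and 0.38 in the Jnk1 libraries. With the length trend removed 20 genes were called, 18 lower and 2 higher, against 13.2% of all loci.

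Other lipid and sterol lists were read in the same comparison. Of 11 tested SREBP1c fatty acid synthesis genes, 4 were lower in Jnk2 than in Jnk1 (Fasn -1.45, Acaca -0.91, Acss2 -0.54, Srebf1 -1.24) and none higher, with a median of -0.91. Of 9 LXR targets Lpcat3 was higher (0.47) and Abca1 lower (-0.83), and the median was -0.01. With the length trend removed the Lpcat3 call ended (0.37, adjusted p = 0.0533) and that of Abca1 did not (-0.53, 0.00121). A further list was broader and also held genes outside sterol uptake, transport and SREBP processing. Of its 19 tested genes, Scarb1, a receptor for HDL, was higher (0.35) and Lrp1 (-1.56) and Rdh11 (-0.46) lower, with a median of 0.10. Markers of other cells moved as well. The neutrophil genes S100a8 (-2.18, adjusted p = 0.0156) and S100a9 (-2.04, 0.0205) were lower in Jnk2, and their sum was 52.1 to 177 FPKM in Jnk1 and 14 to 21.7 in Jnk2. Of 4 endothelial markers 3 were called higher in Jnk2, with sums of 42.9 to 50.8 and 62.7 to 66.2 FPKM. Macrophage markers summed to 116 to 196 FPKM in Jnk1 and 159 to 223 in Jnk2, and 3 of 7 tested were called higher in Jnk2. With the length trend removed the call of Cd68, a macrophage marker, ended (0.57, adjusted p = 0.0613). The stellate markers Lrat (0.36, 0.021) and Col1a1 (0.93, 0.0279) were called higher there and not as deposited. Whether this bears on the cholesterol genes was not tested. In bulk tissue, fewer cells of a type and less RNA per cell cannot be told apart.

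Loss of both kinases on the high fat diet gave 7 called genes of 27 against control (25.9%, against 51.2% of all loci), 2 higher and 5 lower. The share was below that of all loci, so the list did not stand out there. Dhcr7 fell by 0.88 ± 0.16 (adjusted p = 0.000157) and Stard4 by 1.11 ± 0.25 (0.00124), both kept with each library left out and under every other setting. Ebp, the sterol isomerase, rose by 0.42 ± 0.11 (0.0036), from 70.1, 73.8 and 73.7 FPKM to 94.7, 102 and 95.0. Mbtps1 fell by 0.38 ± 0.09 (0.00168), from 12.2, 10.1 and 13.0 FPKM to 8.37, 8.22 and 9.78. Both pairs of groups were apart, and both calls ended with the length trend removed, where Ebp was at 0.18 (adjusted p = 0.132) and Mbtps1 at 0.13 (0.228). Pmvk, the phosphomevalonate kinase, had a change of 0.37 ± 0.15 (0.0489), Ggps1, which makes geranylgeranyl diphosphate, of -0.30 ± 0.12 (0.0388), and Sc5d, the lathosterol oxidase, of -0.39 ± 0.14 (0.0249). Those 3 calls ended with the trend removed (0.697 to 0.921) and without high fat control replicate 1 (0.0615 to 0.161), among other libraries. With the trend removed 3 genes were called, Fdft1 higher (0.55) and Dhcr7 (-0.87) and Stard4 (-0.75) lower, against 36.9% of all loci. As deposited, SREBP1c genes were lower in the same comparison at 7 of 11, with a median of -1.23, against -0.23 for the cholesterol genes. With the trend removed the calls of Acly (-0.30, adjusted p = 0.0832) and Elovl6 (-0.13, 0.575) ended, and Acacb was called higher (0.60, 0.022). Those of Srebf1, Fasn, Acaca, Acss2 and Scd1 did not end. Macrophage markers summed to 139 to 165 FPKM in control and 203 to 256 in Jnk1Jnk2, with 5 of 7 called higher. Endothelial markers summed to 40 to 47.4 and 61.5 to 74.1 FPKM, with Clec4g called higher and Stab2 lower. Hepatocyte markers summed to 16696 to 18749 and 24417 to 29779 FPKM, with Apoa1, Cyp2e1 and Ttr called higher and Hnf4a lower. With the trend removed the stellate markers Col1a1 (1.01, adjusted p = 0.00691) and Reln (0.47, 0.0202) were called higher, neither called as deposited. The calls of the macrophage genes Cd68 (0.24, adjusted p = 0.345) and Clec4f (0.27, 0.126) ended. So did those of Stab2 (0.19, 0.0567), Cyp2e1 (0.21, 0.265) and Ttr (0.22, 0.31). The other calls of these markers did not end. The part of these shifts in the result was not tested.

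**Figure D5:**
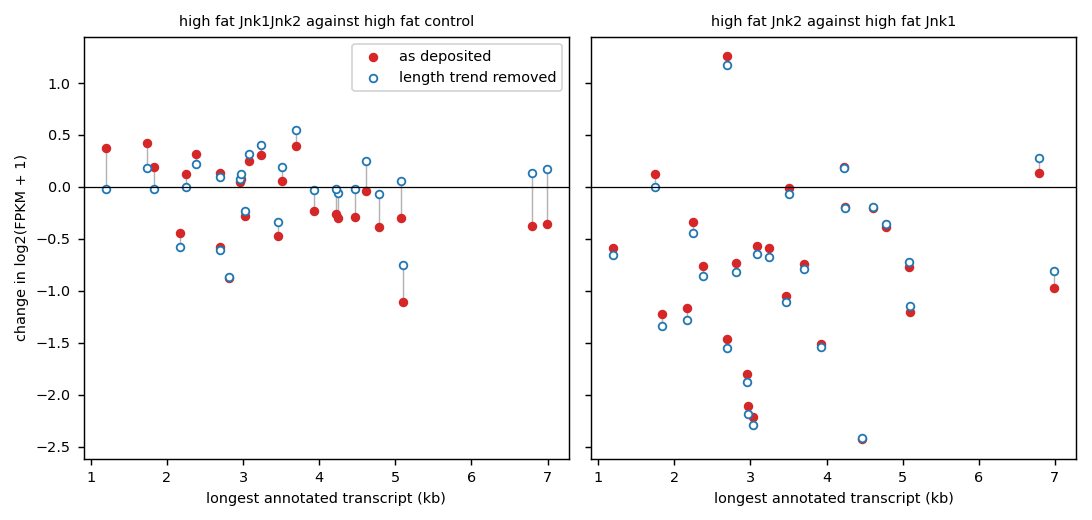
Change in log2(FPKM + 1) of each gene against the length of its longest annotated transcript (kb), as deposited (red) and with the length trend removed (open blue), for 2 comparisons on the high fat diet. Removing the trend shifted genes of the Jnk1Jnk2 comparison by length, with the median going from -0.23 to -0.00, and left the Jnk2 against Jnk1 changes nearly in place.

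Set against high fat Jnk1, Jnk1Jnk2 livers had 17 called genes, 2 higher and 15 lower (63%, against 56.6% of all loci; for lower alone 55.6%, against 33.8%). Stard4 fell most (-1.71 ± 0.25, adjusted p = 1.67e-05), followed by Sqle (-1.52 ± 0.42, 0.00477), Dhcr7 (-1.35 ± 0.16, 1.5e-06), Insig1 (-1.29 ± 0.28, 0.000803) and Lss (-1.25 ± 0.15, 2.39e-06). Srebf2 (-0.81 ± 0.13, 3.35e-05), Nsdhl (-1.08 ± 0.24, 0.00075) and Hmgcs1 (-0.95 ± 0.26, 0.00461) were lower as well, and Insig2 was higher (1.15 ± 0.25, 0.000633). Calls of Idi1, Fdps, Cyp51, Sc4mol and Sc5d ended without high fat Jnk1 replicate 1 (adjusted p = 0.0655 to 0.104), Jnk1Jnk2 replicate 2 (0.0802 to 0.204) or others. With the length trend removed 11 genes were called, 1 higher and 10 lower (40.7%, against 42% of all loci), and the change of Mbtps1 turned from -0.44 to 0.13. The other changes above are as deposited. Of the 17 calls, 9 were kept with each library left out and under every other setting. In the same comparison 5 of 7 macrophage markers were called higher. Endothelial sums were 42.9 to 50.8 FPKM in Jnk1 and 61.5 to 74.1 in Jnk1Jnk2, with Clec4g called higher and Stab2 lower, and hepatocyte sums were 17464 to 20204 and 24417 to 29779, with Apoa1 and Ttr called higher and Hnf4a lower. With the trend removed the stellate markers Lrat (0.40, adjusted p = 0.00323) and Reln (0.45, 0.0209) were called higher and S100a8 lower (-1.59, 0.0283), none of them called as deposited. The calls of Cd68, a macrophage marker (0.14, adjusted p = 0.596), Stab2 (0.17, 0.0814) and Ttr (0.08, 0.707) ended. The other calls of these markers did not end. What these shifts contribute was not tested.

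Against high fat Jnk2, Jnk1Jnk2 livers had 7 called genes, 4 higher and 3 lower (25.9%, against 48.5% of all loci). Mvk was higher by 0.48 ± 0.17 (adjusted p = 0.0229), Pmvk by 0.69 ± 0.15 (0.00136), Tm7sf2 by 0.70 ± 0.15 (0.000829) and Ebp by 0.32 ± 0.11 (0.0224). Lower were Dhcr7 (-0.62 ± 0.16, 0.00347), Scap (-0.42 ± 0.13, 0.0116) and Mbtps1 (-0.57 ± 0.09, 0.000114). Tm7sf2 stood at 24.8, 34.2 and 23.2 FPKM in Jnk2 and 39.6, 50.2 and 44.4 in Jnk1Jnk2, with no overlap. Scap stood at 24.5, 27.5 and 31.6 FPKM in Jnk2 and 20.0, 18.7 and 22.9 in Jnk1Jnk2. The Mvk call ended without high fat Jnk2 replicate 1 (0.0743) or replicate 3 (0.124) or Jnk1Jnk2 replicate 3 (0.0941), and Ebp and Scap lost theirs without Jnk2 replicate 3 (0.127 and 0.0658) or Jnk1Jnk2 replicate 2 (0.0803 and 0.057). With the trend removed 5 genes were called, 4 higher and 1 lower, against 28.4% of all loci. The calls of Pmvk (0.31, adjusted p = 0.123), Ebp (0.17, 0.197), Scap (-0.15, 0.312) and Mbtps1 (-0.14, 0.218) ended there, and those of Mvk, Tm7sf2 and Dhcr7 did not. Among markers, 2 of 7 macrophage genes and 1 of 2 neutrophil genes were called higher, 1 of 4 endothelial genes higher and 3 lower. Of 4 stellate genes 2 were lower, and of 6 hepatocyte genes 2 were higher and 1 lower. With the trend removed the calls of S100a9 (adjusted p = 0.189), Clec4g (0.59), Stab2 (0.463), Lrat (0.794) and Col1a1 (0.357) ended. So did those of Apoa1 (0.431), Ttr (0.426) and Hnf4a (0.113). The macrophage calls and those of Lyve1 and Pecam1 did not end. The part of these markers was not tested.

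In control livers the diet called a share of these genes near that of all loci. High fat feeding called 5 of 27 (18.5%, against 16.3% of all loci). Aacs, the acetoacetyl-CoA synthetase, was at 2.64, 2.99 and 1.73 FPKM on chow and 6.19, 6.37 and 7.83 on high fat, a rise of 1.19 ± 0.37 (adjusted p = 0.0321), and Sc5d rose from 92.6, 77.7 and 69.2 to 109, 106 and 109 (0.44 ± 0.14, 0.0363). Tm7sf2, whose locus also carries 1110014N23Rik, fell from 64.7, 70.0 and 65.0 FPKM to 38.3, 37.2 and 36.1 (-0.82 ± 0.15, 0.000937), with groups far apart. Hsd17b7, a ketosteroid reductase of the route, fell from 18.1, 17.6 and 15.2 to 9.97, 10.2 and 8.77 (-0.76 ± 0.25, 0.0431), and Insig2 from 231, 210 and 198 to 112, 131 and 92.2 (-0.94 ± 0.25, 0.0146). Of the 5 calls only that of Tm7sf2 was kept with each library left out. Aacs, Hsd17b7 and Sc5d lost theirs without high fat control replicate 3 (0.0741 to 0.105), among other libraries. Insig2 lost its call without chow control replicate 1 (0.0518) or high fat control replicate 3 (0.0553). Macrophage markers summed to 71.7 to 112 FPKM on chow and 139 to 165 on high fat, with 3 of 7 called higher. Lrat, a stellate marker, was called higher and Sox9, a cholangiocyte marker, lower. The part of these markers was not tested.

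In Jnk1 livers the diet called 6 genes, all higher (22.2%, against 15% of all loci in either direction and 9.22% called higher). Hmgcs1 rose from 18.3, 21.3 and 16.1 FPKM by 1.25 ± 0.26 (adjusted p = 0.00325), the call of the 6 that was kept with each library left out. Aacs went from 3.74, 5.24 and 6.67 FPKM to 11.5, 18.0 and 13.9 (1.32 ± 0.37, 0.0193). The others were Lss (0.56 ± 0.15), Nsdhl (0.84 ± 0.24), Sc5d (0.45 ± 0.14) and Srebf2 (0.43 ± 0.13), at adjusted p of 0.0178 to 0.0356. Leaving out high fat Jnk1 replicate 2 ended all 5 calls other than Hmgcs1 (0.0778 to 0.152), and leaving out chow Jnk1 replicate 1 ended those of Aacs, Lss, Nsdhl and Srebf2 (0.0621 to 0.0924). S100a8 (2.41, adjusted p = 0.00782) and S100a9 (2.26, 0.0106) were higher in the same comparison, with neutrophil sums of 11.4 to 23.4 FPKM on chow and 52.1 to 177 on high fat. Macrophage sums were 79.4 to 110 and 116 to 196 FPKM, with 3 of 7 markers called higher. Of 6 hepatocyte markers Ttr was called higher and Apoa1 and Cps1 (-1.76) lower. Stab2 (endothelial), Col1a1 (stellate) and Alas2 (erythroid) were called higher. None of these shifts was tested against the 6 genes.

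In Jnk2 livers 10 genes were called, 8 lower and 2 higher on high fat (37%, against 26% of all loci; for lower alone 29.6%, against 6.39%). Sqle fell from 4.41, 5.2 and 6.92 FPKM by 1.77 ± 0.42 (adjusted p = 0.00499), and Tm7sf2 from 57.2, 53.6 and 51.8 to 24.8, 34.2 and 23.2 (-0.98 ± 0.15, 0.000143). Both were kept with each library left out. Idi1 (-1.63 ± 0.49), Sc4mol (-1.47 ± 0.45), Cyp51 (-1.24 ± 0.33), Insig1 (from 24.9, 36.6 and 40.5 FPKM to 13.9, 25.5 and 11.9), Hsd17b7 (-0.79 ± 0.25) and Stard4 (-0.71 ± 0.25) also fell, at adjusted p of 0.0102 to 0.0437, and each of these calls ended without high fat Jnk2 replicate 1 (0.0604 to 0.162), among other libraries. Mbtps1 rose by 0.37 ± 0.09 (0.00556), kept throughout, and Ebp by 0.32 ± 0.11 (0.0346), which ended without the same library (0.146). Macrophage markers were higher on high fat for 7 of 7 in Jnk2, endothelial markers for 4 of 4 and stellate markers for 2 of 4. Of 6 hepatocyte markers Ttr was called higher and Cps1 (-1.04) lower, and of 2 erythroid markers Alas2 was called higher. The part of these markers was not tested.

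In Jnk1Jnk2 livers the diet called 11 genes, 6 higher and 5 lower, fewer as a share (40.7%) than of all loci (56.9%). Ebp (0.54 ± 0.11, adjusted p = 0.000423), Pmvk (0.58 ± 0.15, 0.00374), Mvk (0.58 ± 0.17, 0.00618), Acat2 (0.44 ± 0.15, 0.0209), Aacs (1.13 ± 0.37, 0.0132) and Fdft1 (0.50 ± 0.21, 0.0437) were higher. Stard4 (-1.04 ± 0.25, 0.0018), Dhcr7 (-0.62 ± 0.16, 0.00254), Hsd17b7 (-0.85 ± 0.25, 0.00675), Lss (-0.48 ± 0.15, 0.0123) and Insig1 (-0.74 ± 0.28, 0.0331) were lower. Stard4 stood at 5.63, 5.68 and 6.87 FPKM on chow, and Dhcr7 at 4.48, 5.1 and 4.51, in each case above every high fat library of the genotype. With the length trend removed 9 genes were called, 4 higher and 5 lower, against 43.4% of all loci, and the calls of Ebp, Pmvk, Mvk, Acat2 and Lss ended. The 9 included genes outside the 11, among them Mbtps1, which turned direction and was called higher (0.27, adjusted p = 0.0142). Without high fat Jnk1Jnk2 replicate 3 the calls of Acat2 (0.1), Aacs (0.0868) and Fdft1 (0.16) ended, and without replicate 2 those of Lss (0.0728) and Insig1 (0.137). Macrophage markers were higher on high fat for 6 of 7, and hepatocyte markers were higher for 4 of 6 and lower for 2 of 6. Of the 4, Serpina1a (11.07) was listed at 0 in 7 of the 24 libraries. Clec4g (endothelial), Col1a1 and Des (stellate), S100a9 (neutrophil) and Alas2 (erythroid) were called higher and Sox9 (cholangiocyte) lower. With the length trend removed the calls of Apoa1 (0.05, adjusted p = 0.819), Ttr (0.25, 0.224) and Cyp2e1 (0.04, 0.857) ended. So did those of Des (1.53, 0.0629), S100a9 (1.17, 0.0929) and Alas2 (0.24, 0.224). The other calls of these markers did not end. Csf1r (0.61, 0.018), Stab2 (0.49, 7.01e-05), Lrat (0.40, 0.00291) and Reln (0.54, 0.00718) were called higher there and not as deposited. None of these shifts was tested as a contribution.

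Whether the diet acted differently in a knockout was tested as an interaction. For Jnk1 no gene of the list and no locus of 10562 was called by limma (0%), with 5 of the 27 genes (18.5%) and 545 loci (5.16%) at an unadjusted p under 0.05. For Jnk2 none of the list was called, against 9.52% of all loci, and 8 were at an unadjusted limma p under 0.05 (29.6%, against 26.9%). For Jnk1Jnk2 5 were called (18.5%, against 34.9% of all loci): Pmvk, Tm7sf2 and Ebp with a positive and Dhcr7 and Stard4 with a negative interaction. With the length trend removed 2 of them were called, Dhcr7 and Stard4, against 22.8% of all loci. On chow, Jnk1 livers differed from control in 2 genes of the list (7.41%, against 2.2% of all loci). Mvk, the mevalonate kinase, rose from 4.35, 3.14 and 2.71 FPKM to 6.84, 6.43 and 5.63 (0.74 ± 0.17, adjusted p = 0.0217), a call that ended without chow control replicate 2 (0.0887) or 3 (0.111) or Jnk1 replicate 1 (0.0812) or 2 (0.0668). Insig2 fell from 231, 210 and 198 FPKM to 91.7, 80.2 and 84.5 (-1.31 ± 0.25, 0.00819), kept with each library left out. Chow Jnk2 and chow Jnk1Jnk2 livers had no called gene of the list, against 0.454% and 0.161% of all loci, and 2 genes each at an unadjusted limma p under 0.05 (7.41%, against 13.2% and 12.6% of all loci). Insig2 was lower than control by its group means in every knockout on chow, at 118 FPKM in Jnk2 and 156 in Jnk1Jnk2, neither called. Of the 27 genes 26 were called in at least 1 comparison, and Lbr, the lamin B receptor with sterol reductase activity, in none.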

How the data were processed

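Liver RNA of 24 libraries was read from 1 table of the whole series. The authors deposited FPKM values, with a gene name beside each of 31027 Cufflinks loci. TopHat, Cufflinks and Cuffdiff on mm10 are named in the submitters' processing notes, and versions are not given in the sources used here. Samples were grouped by their titles. Because the table holds no counts, count models were left aside, absolute depth is unknown, and no interval for counting error is given.

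limma 3.58.1 (R 4.3.3, limma-trend) was fitted to log2(FPKM + 1) of all 24 libraries at once with a mean per group, for the 10562 loci with a mean of at least 1 FPKM. Benjamini-Hochberg adjusted p-values were taken over all tested loci within each of 16 contrasts, with calls under 0.05. The scripts were tested on simulated data. The members and the comparison lists were chosen with earlier results of these data known, and the contrast of high fat Jnk2 with high fat Jnk1 was added after values were seen. Values per library are printed, in some or all groups, for the called genes other than Acat2, Ggps1 and Pmvk. Where over 12 were called in a contrast, they include the 3 largest changes of each role.

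The length trend was a loess fit (span 0.5) on the longest annotated transcript, available for 96.5% of tested loci. Other alternatives were a pseudocount of 0.1, no filter, size factors, library weights, a replicate block and leaving out each library.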

Additional observations from a re-analysis of the deposited data

Results flagged for a closer look

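The effect of the high fat diet differed between Jnk1Jnk2 and control livers, by the interaction test in limma, for 5 of the 27 genes. Pmvk had an interaction of 0.71 ± 0.22 on the log2(FPKM + 1) scale (adjusted p = 0.0168), Tm7sf2 of 0.63 ± 0.21 (0.0239) and Ebp of 0.48 ± 0.15 (0.021), each more positive in Jnk1Jnk2. Dhcr7 had an interaction of -0.63 ± 0.22 (0.0339) and Stard4 of -1.40 ± 0.36 (0.00568), each more negative. Of all loci, 34.9% were called in the same test. With the length trend removed, Dhcr7 (-0.72, adjusted p = 0.0291) and Stard4 (-1.10, 0.0328) were called and the other 3 were not, at 0.0511 to 0.492. Without high fat Jnk1Jnk2 replicate 2 the calls of Tm7sf2 (0.0705), Ebp (0.0539) and Dhcr7 (0.111) ended.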

How the results depend on the processing

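Counts are of the 27 genes called. With library weights the count became 1 for chow Jnk2 (4.41% of all loci called), 17 for high fat Jnk1 (6.78%) and 8 for high fat Jnk2 (26.7%) against control, 10 for diet in Jnk1 (21%), 16 for diet in Jnk2 (43.3%) and 6 for the diet by Jnk2 interaction (22.5%). High fat Jnk2 against control gave 2 with a pseudocount of 0.1, with size factors and with the length trend removed, and 1 with the replicate block. The diet by Jnk2 interaction gave 1 with a pseudocount of 0.1, and diet in control gave 2 with no filter. Removing the length trend gave 3 for high fat Jnk1Jnk2 against control, 3 for diet in Jnk1, 11 for high fat Jnk1Jnk2 against Jnk1 and 2 for the diet by Jnk1Jnk2 interaction. The same setting turned the direction of Pmvk (-0.02) and Mbtps1 (0.13) in high fat Jnk1Jnk2 against control, and of Mbtps1 (0.13) against high fat Jnk1. For diet in Jnk1Jnk2 it turned Pmvk (-0.01) and Mbtps1 (0.27), the latter called higher.

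Leaving out 1 library gave the following counts, with the range over all loci in brackets. Against chow control there were 1 to 2 called genes for chow Jnk1 (0.908% to 3.75%), 0 to 1 for chow Jnk2 (0.0568% to 0.825%) and 0 for chow Jnk1Jnk2 (0.0851% to 0.199%). On high fat there were 0 to 3 for Jnk1 (0.0947% to 1.2%), 0 to 2 for Jnk2 (8% to 13.3%) and 4 to 9 for Jnk1Jnk2 (41.3% to 53.2%) against control, 12 to 19 for Jnk1Jnk2 against Jnk1 (48.5% to 58.7%), 4 to 11 against Jnk2 (37.9% to 49.3%) and 14 to 19 for Jnk2 against Jnk1 (6.7% to 15.3%). For diet there were 1 to 5 in control (9.91% to 19.6%), 1 to 9 in Jnk1 (9.31% to 18%), 3 to 13 in Jnk2 (16.3% to 28.1%) and 8 to 12 in Jnk1Jnk2 (47.8% to 58.8%). For the interactions there were 0 with Jnk1 (0% to 0.00949%), 0 to 4 with Jnk2 (4.75% to 12.6%) and 2 to 6 with Jnk1Jnk2 (26.7% to 38.2%). The lowest counts came without high fat Jnk1 replicate 2 for diet in Jnk1, without high fat Jnk2 replicate 1 for diet in Jnk2, without high fat control replicate 3 for diet in control and without high fat control replicate 1 for Jnk1Jnk2 against control.

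Over all loci, library weights moved the count from 24 to 716 for high fat Jnk1, from 1311 to 2824 for high fat Jnk2, from 48 to 466 for chow Jnk2 and from 17 to 447 for chow Jnk1Jnk2 against control, and from 1527 to 3861 for high fat Jnk2 against Jnk1. Same-numbered libraries did not deviate together (median r of -0.02 over 84 pairs, against 0.00 for other pairs), so the replicate number was not read as a pairing. The replicate block made 3 calls of the 27 genes and ended 3. The cause of each change was not tested. No depth limit can be stated, because the files hold no counts.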
